A study of Mus musculus with 24 samples.

Results

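Brown adipose tissue (BAT) burns fat to make heat, and newborn mice depend on it. The 12 vehicle (VEH) libraries of the study describe how the DNA of this tissue was methylated in infant mice at postnatal day (PND) 12, and how far litters differed from each other. They were chosen by their label for perinatal treatment, olive oil, which 12 of the 24 infant libraries carried. The other 12, from dams given DDT, entered no comparison. All mice were female C57BL/6J. Their dams were gavaged with olive oil from mid-gestation to PND 5, and each library was made from the pooled interscapular BAT of 2 to 5 pups of 1 litter. A level is thus an average over several pups and over every cell type in the dissected pad, and a litter, numbered by the replicate number of its label, is the unit of replication. A shift in the mix of cells and a change within 1 cell type cannot be told apart in such pools.

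In mammals, cytosines are methylated mainly where a guanine follows them (CpG). Maintenance methyltransferases copy the mark at each division, and TET enzymes start its removal. CpG islands are short stretches rich in CpGs that overlap many gene starts and are usually kept free of methylation, while the CpG-poor remainder of the genome is usually methylated. Shores flank islands and shelves flank shores. At imprinted loci, the copy from 1 parent is methylated and the other is not, so that a pool of cells gives an intermediate level. Reduced representation bisulfite sequencing cuts DNA with MspI at CCGG and reads the ends of short fragments, and bisulfite turns unmethylated cytosines into thymines.

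The level of a fragment was its methylated CpG calls divided by all its CpG calls, in percent, in a litter with at least 10 calls. The litters held between 8371958 calls (litter 10) and 13768991 calls (litter 6), with a median of 11386165. Of 65535 fragments on chromosomes 1, 2 and part of 3, 21350 (32.6%) had a level in at least 8 litters and are described below, 18152 had one in all 12 litters, and 17659 had no call in any. In the median fragment of those 21350, a litter had between 167 and 290 calls. Short fragments were read far more often than long ones: 70.2% of fragments of 30 to 49 bp were usable, 48.5% of those of 50 to 99 bp, 14.4% of those of 100 to under 150 bp and 6.08% of those of 150 to 220 bp. Island cores were usable in 73.6% of cases and fragments outside islands in 25.1%. Levels of any 2 litters correlated across 18152 fragments with r between 0.979 and 0.993, as a description across fragments, and no 2 litters agreed within counting error. The calls came from PCR products without molecular identifiers, so the counting errors given below treat calls as independent although they are not. The tissue label was not checked against defining genes, since methylation levels do not give expression.

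Most fragments were either nearly free of methylation or nearly full. Averaged over litters, 58.8% ± 0.767 (SD, n = 12) of fragments lay below 20%, 18.5% ± 0.677 lay between 20 and 80%, and 22.8% ± 1.05 lay above 80%. The share above 80% ran from 20.9% in litter 8 to 23.9% in litter 4. The mean level over fragments was 33.98% ± 0.782, and the median fragment was at 11.7%. Of the 21350 fragments, 9986 lay below 10% and 3513 at or above 90%.

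Fragment length changed this picture at the length of the reads, which were 50 bp long. Outside islands, fragments of 45 to 49 bp had a mean level of 47.7% ± 0.767 and a median fragment at 52.1% (n = 1111 fragments). The next length class, 50 to 54 bp, had a mean of 61.3% ± 0.969 and a median fragment at 86.1% (n = 1077). The share of fragments between 20 and 80% fell from 35.1% to 15.1% across the same step. In island cores, where levels were low on both sides, the mean was 5.62% ± 0.586 at 45 to 49 bp and 5.10% ± 0.224 at 50 to 54 bp. In cores it was higher in the longest fragments, with 13.2% ± 0.792 at 150 to 220 bp.

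**Figure D1:**
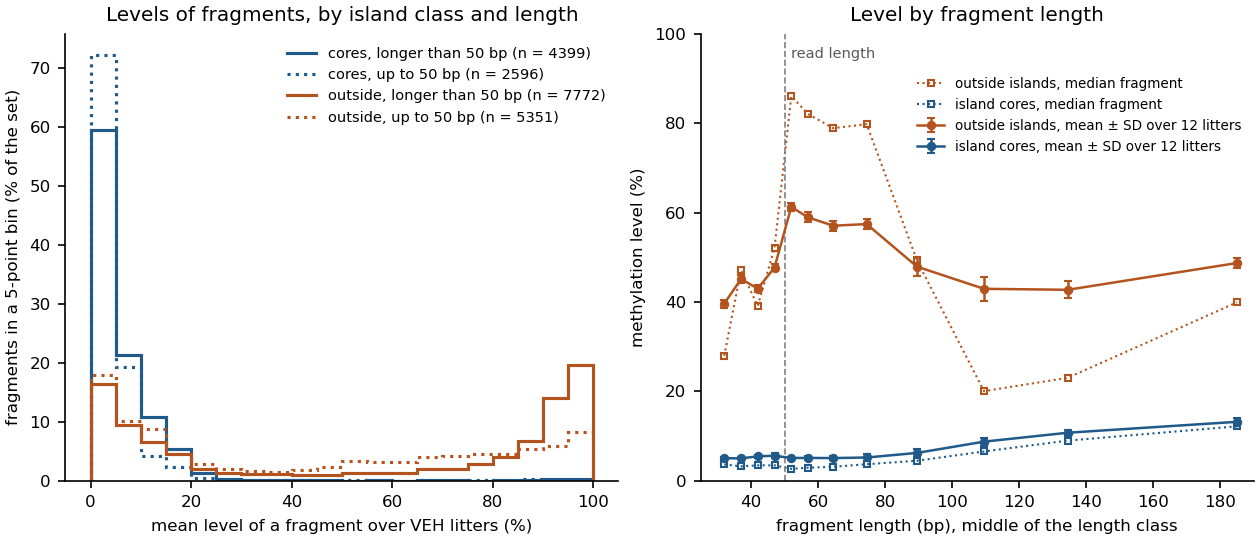
Left, histogram of the mean level of each fragment over the VEH litters, in bins of 5 percentage points, as a percent of each of 4 sets of fragments (island cores or outside islands, up to or over 50 bp). Right, mean level (filled, error bars are SD over 12 litters) and median fragment (open) by fragment length, with the read length as a dashed line: outside islands the median fragment steps from 52.1% to 86.1% at that line.

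Among short fragments outside islands that hold a single CpG, the level followed base composition. Fragments were sorted by the difference between the shares of G and C on the plus strand: C-rich where it was below -0.1, balanced within 0.05 of 0, and G-rich above 0.1. At 40 to 49 bp the median fragment was at 13.1% among 155 C-rich, 42.8% among 194 balanced and 90.5% among 178 G-rich fragments. Over all such fragments, Spearman's rho between composition and level was 0.68 at 30 to 39 bp (n = 1179) and 0.71 at 40 to 49 bp (n = 674). It was 0.07 at 50 to 59 bp (n = 354) and 0.11 at 60 to 79 bp (n = 288). These are descriptions across fragments that share libraries and depth. As background on the method, end repair of an MspI cut adds cytosines that are unmethylated in the tube, and a read reaches the far end of a fragment only when the fragment is no longer than the read. The part of end repair in the step was not tested. Values for fragments over 50 bp are therefore given beside the main ones.

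The 3 sequences below are the most deeply read fragment of each composition at 40 to 49 bp, shown because they differ in level with only 1 CpG each. All sequences here are GRCm38, plus strand, 5′ to 3′, with CpGs in capitals. The longest printed fragments were read only at their ends by 50 bp reads, so their levels need not cover every CpG shown.
Speg intron, C-rich, chr1:75404628-75404675: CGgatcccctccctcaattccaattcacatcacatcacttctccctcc
Cntnap5a upstream, balanced, chr1:114576624-114576664: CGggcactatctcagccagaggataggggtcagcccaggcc
Plcg1 exon, G-rich, chr2:160754681-160754721: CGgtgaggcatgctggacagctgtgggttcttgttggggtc
The Speg fragment lay between 10.5% and 16.5% with a median litter at 14.4%. The fragment named for Cntnap5a, whose start is 1108093 bp away, lay between 72.4% and 80.3% with a median of 76.7%. The third, which the deposited annotation names for an intron of Zhx3 and which GENCODE places in an exon of Plcg1, a phospholipase gene, lay between 97.4% and 100% with a median of 99.2%. The 3 ranges did not overlap.

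**Figure D2:**
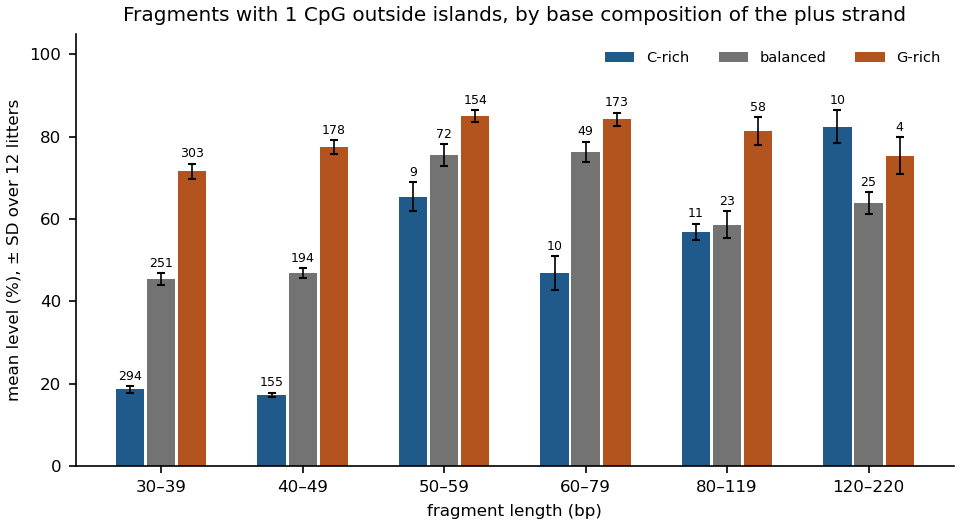
Mean level (bars, from 0) of fragments outside islands with 1 CpG, by fragment length and by base composition of the plus strand. Error bars are SD over 12 litters and the number of fragments stands above each bar. Below 50 bp the 3 compositions are far apart, with means of 17.2%, 46.8% and 77.5% at 40 to 49 bp.

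Levels rose with distance from CpG islands, in every litter. Island cores had a mean level of 6.16% ± 0.424 (SD over litters, 6995 fragments), fragments across a core edge 10.98% ± 0.644 (290), shores 24.8% ± 1.10 (603), shelves 38.5% ± 1.199 (318) and fragments outside all of these 49.8% ± 1.07 (13123). A small class at the overlap of shelves, with 13 fragments, had a mean of 19.99% ± 2.70, and 8 fragments across a shore and a shelf had 52.3% ± 1.94 and were not tested. The classes were compared within litters with a two-sided exact permutation test that flips the sign of each litter's difference, over 4096 sign flips. Of 15 pairs of classes, 15 passed an adjusted p of 0.05, and all had the same direction in 12 of 12 litters. Shores exceeded cores by 18.6 percentage points ± 0.996, shelves exceeded shores by 13.8 ± 0.503, and fragments outside islands exceeded shelves by 11.2 ± 0.351 (adjusted p = 0.000488 in each case, the smallest that the exact test can give). Such a p speaks for these fragments over litters, not for fragments at large. In fragments over 50 bp the means were 6.65%, 11.4%, 25.6%, 41.3% and 53.8% in the same order, and 14 of 15 pairs passed. The exception was the shelf-overlap class, with 10 fragments of that length, which no longer differed detectably from shores (exact permutation test, adjusted p = 0.284).

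A class mean hid mixtures rather than a common value. In shelves, 49.4% of fragments lay below 20% and 24.8% above 80%. In shores, 67.5% lay below 20% and 10.4% above 80%. Among cores, 97.4% lay below 20% and 0.629% above 80%. Outside islands, 38.6% lay below 20% and 36.3% above 80%, and these shares were 36.8% and 44.8% in fragments over 50 bp.

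Fragments that span a gene's start or end had the lowest level of any gene region over all fragments, though not within island cores. The deposited annotation leaves this class unnamed, and 614 of its 632 usable fragments cover a gene start. Its mean was 8.74% ± 0.563. Fragments that pass from an intron into an exon were at 24.9% ± 0.829 (465 fragments) and exons at 26.7% ± 0.681 (4057). Fragments that pass from an exon into an intron were at 31.0% ± 0.946 (619), introns at 32.9% ± 0.829 (5931) and fragments upstream of a gene at 40.01% ± 0.829 (9623). A class of 11 long fragments that hold introns was at 50.1% ± 4.04. All 21 pairs passed (exact permutation test, adjusted p = 0.000553 at most), as they did in fragments over 50 bp.

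Since islands sit at gene starts, the regions were also compared outside islands alone. There the mean was 16.0% ± 0.968 across gene starts or ends (138 fragments), 38.95% ± 1.21 from intron to exon (254), 44.2% ± 1.05 in exons (2072), 45.4% ± 1.09 in introns (3929), 48.0% ± 1.27 from exon to intron (341) and 55.5% ± 1.08 upstream (6376). All 15 pairs passed. The order of the middle classes changed with fragment length: introns were 2.54 percentage points below exon-to-intron fragments at all lengths and 1.54 above them over 50 bp, and the difference of 0.0357 between exons and exon-to-intron fragments over 50 bp did not pass (exact permutation test, adjusted p = 0.760). Within island cores the regions lay within a narrow band, from 5.39% in introns to 6.997% upstream, and 11 of 15 pairs passed. There, fragments across gene starts or ends were at 6.67%, above exons at 5.48%, introns and intron-to-exon fragments at 5.60% in 12 of 12 litters (exact permutation test, adjusted p = 0.000553 for each).

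Levels were lowest close to gene starts and highest far from them. Among upstream fragments outside islands, the mean was 22.0% ± 0.689 up to 1 kb from the named gene (252 fragments), 48.0% ± 1.37 at 1 to 5 kb (205), 51.8% ± 1.21 at 5 to 50 kb (2140), 53.3% ± 1.14 at 50 to 200 kb (2138) and 69.3% ± 0.886 beyond 200 kb (1641). Each of the 4 steps passed, in 12 of 12 litters (exact permutation test, adjusted p = 0.000558). Island cores stayed low out to 50 kb, at 5.53% ± 0.374, 6.402% ± 0.461 and 5.95% ± 0.472 for the 3 nearest classes. They were at 11.7% ± 0.405 at 50 to 200 kb (250 fragments) and 37.9% ± 0.669 beyond 200 kb (56 fragments). The remote cores were of both kinds, since 60.7% lay below 20%, 33.9% above 80% and the median was 8.69%. The first core step, 0.869 percentage points, was 0.158 over 50 bp and did not pass there.

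Inside genes the low zone reached further than upstream. In fragments over 50 bp outside islands, the mean was 12.95% ± 0.591 in the first 500 bp of the gene, 13.3% ± 0.978 at 500 to 1000 bp and 14.2% ± 0.708 at 1000 to 2000 bp. It was 38.1% ± 1.41 at 2000 to 5000 bp and 73.1% ± 1.29 beyond 100000 bp. Upstream, the mean was already 19.3% ± 0.885 within 500 bp, 35.6% ± 2.30 at 500 to 1000 bp (28 fragments) and 54.1% ± 3.48 at 1000 to 2000 bp (25 fragments). These bins were described and not tested.

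**Figure D3:**
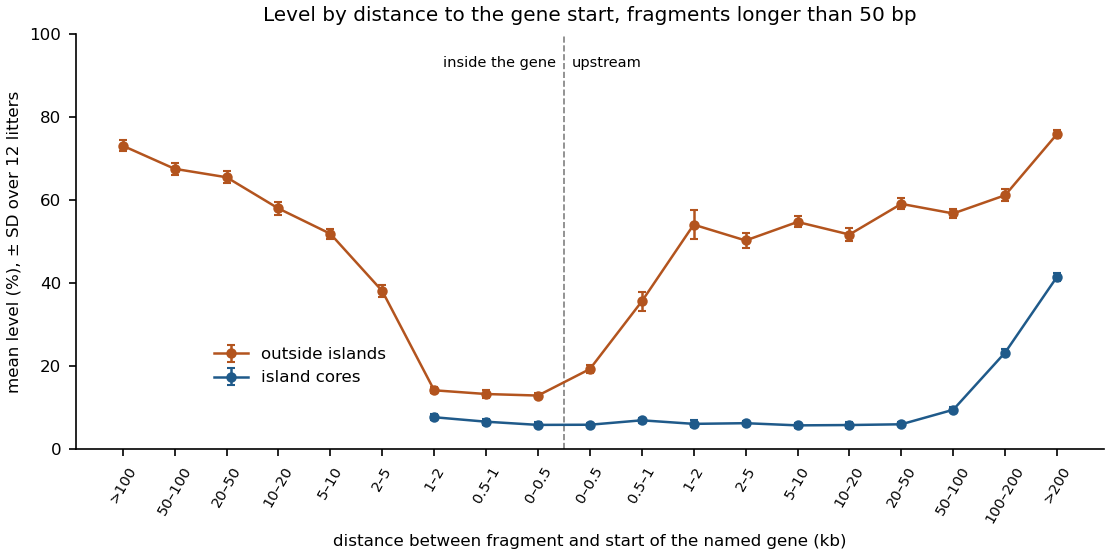
Mean level of fragments over 50 bp by distance to the start of the named gene, in bins of kb from far inside the gene (left) to far upstream (right), outside islands and in island cores. Points are means over 12 litters with SD. Outside islands the curve is lowest in the 3 bins inside the gene next to its start, at 12.95% to 14.2%, and cores lie above 7.74% in the 3 bins beyond 50 kb upstream alone.

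CpG density ordered fragments even where no island was annotated. In fragments over 50 bp outside islands, the mean fell along the density classes from 73.9% ± 1.67 at up to 2 CpGs per 100 bp (1040 fragments) to 51.2% ± 1.18 at 6 to 8 (1030), 27.8% ± 0.867 at 8 to 10 (649) and 5.41% ± 0.392 at 15 to 30 (347). Repeats, marked as soft-masked bases of the reference, stood at the other end. Fragments without a masked base had a mean of 47.7% ± 1.19 and those masked throughout 86.9% ± 0.502 (696 fragments), of which 86.3% lay above 80%. Even in island cores, the 21 fully masked fragments had a mean of 80.1% ± 0.762, against 5.99% ± 0.578 in the 3645 unmasked ones. Neighbouring fragments that share a cut site differed by a median of 5.51 percentage points where both were over 50 bp (2850 pairs), and 68.4% of these pairs lay within 10 points of each other. These are descriptions of fragments and carry no test.

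Gene by gene, the level near the start was taken as the mean of fragments within 1000 bp of any GENCODE transcript start. It could be given for 3218 genes, with a median of 6.81%, of which 2536 lay below 20% and 262 (8.14%) above 80%. For the 2411 protein-coding genes the median was 6.44%, 2050 (85.03%) lay below 20% and 88 (3.65%) above 80%. Lists of genes are described by counts and medians beside these values, with no test.

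Genes of the adipocyte itself were near the level of all protein-coding genes. Of 26 adipocyte genes, 25 had a fragment, 22 of them (88.0%) lay below 20%, and the median was 7.33%. Fabp5, a fatty acid-binding protein, was the lowest, between 0% and 3.84% over litters with a median litter at 1.12%. Bmp7, a signal that promotes brown adipocyte differentiation, was at the middle of the list, between 5.49% and 8.97% with a median of 7.31%. Pck1, which feeds glycerol synthesis in fat, was the highest, between 20% and 84.6% with a median of 68.0% in the 9 litters with a level, the widest range of these 3 genes. Pck1 had only 1 fragment, with under 10 calls in the other litters. Of 22 housekeeping genes, 19 had a fragment and all 19 lay below 20%, with a median of 5.59%. They ran from Sf3b1, a splicing factor, at 2.78% ± 0.694 through Hnrnpu, a nuclear RNA-binding protein, at 5.59% ± 1.05 to Sdhc, a subunit of succinate dehydrogenase, at 12.1% ± 7.81. Hspd1 and Hspe1 shared all their fragments, as did Eef1b2 and Ndufs1, so the 19 genes were not separate observations.

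Genes of the germline were mostly high. Of 8 listed, 7 had a fragment, and 6 of these lay above 80%, with a median of 85.4%. Spo11, which cuts DNA at the start of meiotic recombination, was the highest, between 93.3% and 96.5% with a median of 94.4%. Hormad1, a protein of the meiotic chromosome axis, lay between 84.3% and 87.2% with a median of 85.2%. Tdrd5, of the piRNA pathway, was the exception, between 2.69% and 15.1% with a median of 8.48%. The Spo11 fragments hold 4 and 11 CpGs and lie outside annotated islands, and the fragments at Hoxd13, with 4, 9 and 7 CpGs, lie in a core. An example of each is shown because they are of like length and CpG count and come from windows of opposite level. The window means were 94.6% ± 0.971 over 2 fragments for Spo11 and 2.42% ± 0.456 over 3 fragments for Hoxd13. Levels of the printed fragments alone are not given here. The deposited annotation places the Spo11 fragment in an intron.
Spo11, chr2:172980001-172980055: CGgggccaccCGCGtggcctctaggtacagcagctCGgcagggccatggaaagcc
Hoxd13, chr2:74667954-74668004: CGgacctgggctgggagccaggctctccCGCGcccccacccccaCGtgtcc

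Developmental transcription factors, many of them known for tissues other than fat, were also low, as most protein-coding genes were. Of 33 listed, 31 had a fragment, 29 (93.5%) lay below 20% and none lay above 80%, with a median of 8.50% that is above the protein-coding median. Hoxd13, which patterns the distal limb, lay between 1.46% and 3.09% with a median of 2.36%. Dlx1, a factor of forebrain interneurons, had a mean of 8.50% ± 3.80. Hoxd4, a factor of the axial skeleton, was the highest, between 22.4% and 27.5% with a median of 24.7%. Its window joins 2 fragments of a core that are named for Mir10b, 13758 and 14005 bp away, with 2 of its own exon.

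Muscle and blood genes stood for other cells that a dissected pad could hold, and each list was split. Of 18 muscle genes, 12 had a fragment, 3 lay below 20% and 5 above 80%, with a median of 70.8%. Des, the muscle intermediate filament, was the lowest at 10.4% ± 6.79 (11 litters), Myog, the myogenin transcription factor, stood at 64.2% ± 2.24, and Neb, the thin-filament protein nebulin, was the highest at 94.4% ± 1.29. Of 22 blood and immune genes, only 7 had a fragment, 3 of them below 20% and 1 above 80%, with a median of 66.8%. Ikzf2, the transcription factor Helios, was at 3.34% ± 0.567, Cd2, a T cell adhesion protein, at 66.8% ± 1.94 and Cd247, the zeta chain of the T cell receptor, at 98.0% ± 3.78 (10 litters). Neb, Cd2 and Cd247 had 1 fragment each. That of Cd2, the middle gene of its list, was not over 50 bp. With 7 genes, the blood and immune median moved to 8.50% in a window of 500 bp and to 79.1% in a window of 2000 bp.

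**Figure D4:**
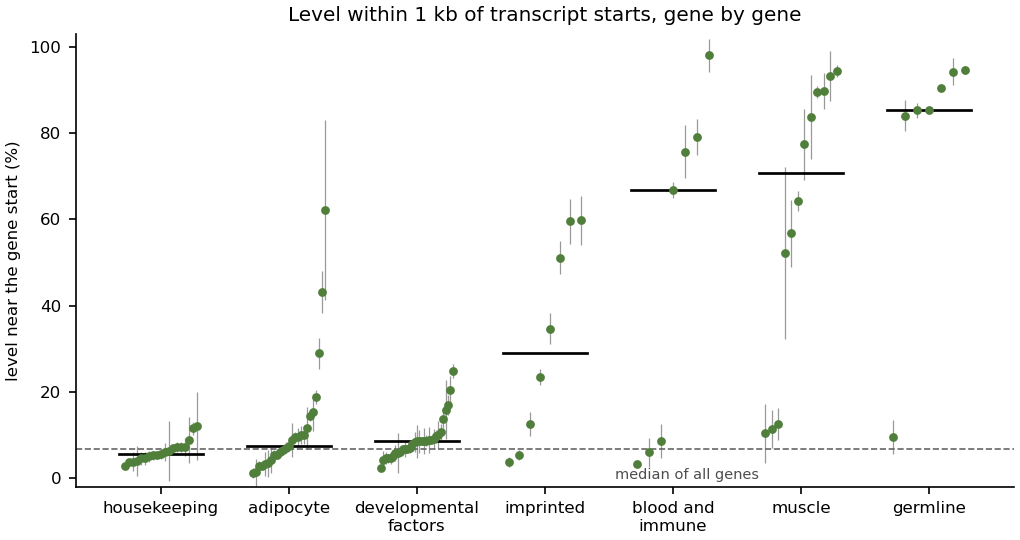
Level within 1 kb of transcript starts for each gene of 7 lists, in percent. Points are means over VEH litters with SD, black lines are list medians, and the dashed line is the median of all genes at 6.81%. Housekeeping genes stay below 20%, 6 of 7 germline genes lie above 80%, and muscle and blood genes are split.

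Of 10 imprinted genes, 8 had a fragment, and 5 of them lay between 20 and 80%, against 420 of the 3218 genes of all kinds. The means were 3.76% for Zdbf2, 5.38% for Sfmbt2, 12.6% for Gatm, 23.4% for Blcap, 34.7% for Gnas, 51.1% for Nnat, 59.5% for Nespas and 59.7% for Mcts2. Gene means mixed fragments with very different levels. The genes were not separate observations: the 3 fragments of Nnat were also counted for Blcap, and the 4 of Nespas for Gnas. Over 50 bp alone the list median was 13.01% instead of 29.1%, and 5 of the 8 genes lay below 20%.

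Nnat, a paternally expressed gene in an intron of Blcap, had 3 fragments in its window. The fragment upstream of its start (chr2:157559574-157559608, island shore) lay between 44.4% in litter 8 and 73.1% in litter 10, with a median of 64.8%. The next, in an exon (chr2:157560274-157560310, island core), lay between 71.1% and 82.2% with a median of 77.8%. The third, directly beside it (chr2:157560311-157560476), lay between 9.37% and 17.2% with a median of 14.4%, so that 2 adjoining fragments did not overlap in any litter. Both are shown because the step falls at the cut site between them, and the first of these 2 is shorter than the read.
Nnat exon, higher: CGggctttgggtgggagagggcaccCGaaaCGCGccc
Nnat exon, lower: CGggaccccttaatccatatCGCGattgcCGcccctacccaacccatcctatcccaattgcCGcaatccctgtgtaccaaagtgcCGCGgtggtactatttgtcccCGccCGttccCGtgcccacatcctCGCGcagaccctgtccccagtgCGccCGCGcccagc

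Mcts2, a retrogene within H13 that is expressed from the paternal copy, had 2 adjoining fragments in a core upstream of its start. The farther one (chr2:152686813-152686853) lay between 44.5% and 56.8% with a median of 51.8%. The nearer one (chr2:152686854-152686978), with 15 CpGs, lay between 53.1% in litter 1 and 80% in litter 10 with a median of 67.5%. It is printed as the CpG-dense core fragment closest to the retrogene.
Mcts2 upstream: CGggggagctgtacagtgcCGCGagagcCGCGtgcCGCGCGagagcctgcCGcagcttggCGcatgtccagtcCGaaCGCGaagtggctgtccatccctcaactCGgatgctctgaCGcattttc

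The Gnas locus makes the stimulatory G protein alpha subunit, through which adrenergic receptors raise cyclic AMP in brown fat, from several imprinted starts, with the antisense transcript Nespas among them. Its 28 fragments differed in level along the locus. In the window of the Nespas start, 2 fragments in a core (chr2:174284689-174284850 together) had means of 73.2% ± 9.91 and 71.6% ± 10.7. Their nearest GENCODE start was one of Gnas, 369 and 406 bp away, and they lie in exons of both genes. Another, over the Nespas start itself (chr2:174285424-174285591), had 79.7% ± 2.96. A fragment of 35 bp with 1 CpG next to the last was at 13.7% ± 3.40. At lower coordinates (chr2:174284177-174284269), 51 bp from a start of Gnas, a fragment lay between 0% and 84.3% in 10 litters, with as few as 15 calls. Farther along, 3 fragments in an exon of Gnas between 174297978 and 174298472 had means of 77.0% ± 1.96, 43.8% ± 6.42 and 54.9% ± 9.73, the outer 2 being shorter than the read. Another block, at 174327850 to 174328737, held 5 fragments with means from 52.8% ± 17.4 to 90.8% ± 5.36. Just before that block, a fragment in an intron of Gnas (chr2:174326931-174326987) had the highest mean of the 28, 92.7% ± 5.90, with as few as 16 calls in a litter. After it, from 174329841 to 174330925, 10 of 11 fragments lay at or below 5.10%. The other, named for Gm20721 and lying over a start of Gnas by GENCODE, was at 18.6% ± 2.29. Between these blocks lay 3 fragments with means of 13.1%, 24.8% and 11.4%, the last of them with as few as 11 calls in a litter.
The fragment of this locus that spread most is shown because it recurs below (chr2:174328491-174328543, in an exon by GENCODE).
Gnas: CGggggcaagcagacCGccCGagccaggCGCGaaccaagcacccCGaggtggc
Its level was 14.5% in litter 8, 36.9% in litter 1, 37.5% in litter 9, 40.2% in litter 6 and 51.0% in litter 3. It was 57.2% in litter 5, 61.7% in litter 7, 63.5% in litter 2, 64.6% in litter 11, 64.8% in litter 12, 66.7% in litter 4 and 75.4% in litter 10. Each litter had at least 662 calls there, and the SD of 17.4 percentage points was far above the 1.53 that counting would give. Zdbf2, by contrast, had means from 1.499% to 8.24% in its 6 fragments, all in or beside a core at its start.

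The spread between litters depended on the level. Among 18152 fragments usable in every litter, the median SD was 2.10 percentage points, against 1.59 expected from counting calls, and 1.07 remained after the counting variance was taken off. The median SD was 0.608 in fragments below 1%, 0.861 at 1 to 5%, 3.595 at 10 to 20% and 5.71 at 20 to 40%. It was 5.19 at 40 to 60%, 3.46 at 80 to 90% and 1.45 above 95%. In fragments over 50 bp at 40 to 60% it was 7.06 against 3.93 expected, and 25.1% of these 323 fragments had an SD above 10.

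The 10 fragments with the largest SD, among 13559 with at least 50 calls in every litter, were chosen by that SD and are described without a test. They were named for Bcar3, Phf17, Per2, Gnas, Kprp, Vps72, Pou3f3, Sec24d, Ndrg3 and Angptl1. Some named genes were far off: Per2 lay 159067 bp away, Pou3f3 61752 bp, Phf17 35517 bp and Kprp 16421 bp. The SDs ran from 15.4 to 19.3 percentage points against 1.53 to 4.85 expected from counting. The top 4 include the Gnas fragment above, and the others are shown here because they vary most.
Bcar3, chr3:122483707-122483764: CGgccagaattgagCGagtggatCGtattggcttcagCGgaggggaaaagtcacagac
Phf17 upstream, chr3:41520182-41520218: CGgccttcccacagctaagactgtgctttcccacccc
Per2 upstream, chr1:91618396-91618563: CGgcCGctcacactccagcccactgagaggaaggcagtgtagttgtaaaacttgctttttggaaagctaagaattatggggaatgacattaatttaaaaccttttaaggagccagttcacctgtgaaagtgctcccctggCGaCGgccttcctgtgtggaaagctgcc
The Bcar3 fragment, over a GENCODE start of this adaptor protein gene, had no methylated call among 79 in litter 8, which allows a level of up to 3.80%, and 70.8% in litter 10, with a median of 23.4%. The Per2 fragment, named for a circadian repressor 159067 bp away, lay between 27.0% in litter 8 and 79.9% in litter 12 with a median of 66.3%. Vps72, a chromatin remodelling subunit, had a fragment between 22.2% in litter 8 and 74.7% in litter 2, and the fragment upstream of the neural factor Pou3f3 ran from 17.8% in litter 8 to 71.0% in litter 10. The fragment in an intron of Ndrg3 (46 bp, 1 CpG) ran from 43.1% in litter 8 to 87.8% in litter 12. The fragment named for Kprp, a gene of keratinising skin, had its lowest level, 19.0%, in litter 2 and its highest, 76.6%, in litter 7.
Of the 10 fragments, 3 ran the other way. Phf17 was highest in litter 8 at 85.5% and lowest in litter 10 at 27.4%, Sec24d, of the COPII coat, ran from 68.1% to 15.8% and Angptl1, an angiopoietin-like factor, from 83.4% to 35.1% in the same 2 litters. These 3 fragments have 37, 35 and 40 bp, are shorter than the read and hold 1 CpG.

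The 5 steadiest of the fragments between 40 and 60% were all of 37 to 49 bp with 2 CpGs. They were named for Tank, 1700101I19Rik, Arfgap2, Armc1 and Pkp4, with SDs from 0.736 to 0.964 percentage points. All of these were below the SD expected from counting, 1.498 to 2.38. The fragment named for Tank, an adaptor of innate immune signalling that lies 58299 bp away, is shown for contrast with the variable ones.
Tank upstream, chr2:61520247-61520287: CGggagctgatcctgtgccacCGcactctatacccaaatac
It lay between 52.7% and 55.4% in the 12 litters, with a median of 53.6%. Over 50 bp, the steadiest was in an exon of Hoxd4 (chr2:74727479-74727531), at 47.5% ± 1.25 against 1.02 expected, and the next 4 had SDs from 1.79 to 2.30.
Hoxd4 exon: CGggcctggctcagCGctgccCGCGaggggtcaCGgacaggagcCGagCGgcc

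The most deeply read fragments of the classes ranged from below 1% to above 97%. The most calls of any fragment, a median of 282596 per litter, fell on a core of 33 bp named for AC137844.2 (chr3:5860668-5860700), which lay between 35.7% in litter 8 and 54.6% in litter 7 with a median of 50.9%. Outside islands, the most deeply read, named for Vcpip1 and lying over the start of Sgk3 by GENCODE, was at 1.07% ± 0.101. In introns the deepest, at Bahd1, was at 0.796% ± 0.107. The deepest fragments across a gene start and in exons, at Gnb4 and Pmepa1, were at 2.46% ± 0.260 and 2.40% ± 0.287. In shelves and across a shore and a shelf, the deepest were in exons of Ssrp1 and Glul, at 91.0% ± 0.639 and 97.8% ± 0.575.

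Litters 8 and 10 stood at the ends of many intermediate fragments. Over all 18152 fragments usable in every litter, litter 2 was the lowest most often, in 16.0%, against 13.1% for litter 8. Litter 10 was the highest most often there, in 13.9%. Among fragments below 20%, litter 2 was the lowest in 17.7% and litter 8 in 7.62%. Above 80%, litter 8 was the lowest most often, in 18.8%. Of 3177 fragments with a mean level of 20 to 80%, litter 8 was the lowest in 25.4% and litter 10 the highest in 19.8%. Over 50 bp these shares were 26.9% and 20.5% of 1292. Among the 200 fragments with the largest SD, litter 8 was the lowest in 104 and litter 10 the highest in 87. These counts were 589 and 424 of 2194 fragments at 20 to 80%. They were 1839 and 1920 of all 13559 fragments with 50 calls in every litter. The 200 were chosen by their SD, which an outlying litter itself raises. Of the 200, 92.5% lay outside islands, against 91.8% of the 2194 and 57.4% of the 13559. Litter 8 held 13295035 calls, among the most, and litter 10 held the fewest.

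Litters differed as wholes, by small amounts in the mean and larger ones at intermediate levels. Over the 18152 shared fragments the mean level of a litter ran from 31.6% in litter 8 to 33.6% in litter 12, with a mean of 32.7% ± 0.565. Relative to the mean of all litters, intermediate fragments deviated by -4.05 percentage points in litter 8 and by 2.86 in litter 10. Low fragments, below 20%, deviated by at most 0.622, in litter 1, and high fragments, above 80%, by -1.41 in litter 8 to 0.779 in litter 12. In fragments over 50 bp the intermediate deviations ran from -5.50 to 3.93.

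Of 10 relations across the 12 litters, 7 were set out for this description and 3 were added after seeing the data, with p-values adjusted over the 10. A litter high on 1 chromosome was high on the others, with r = 0.99 for each of the 3 pairs (rho 0.88 to 0.96, permutation test of 100000 resamples, adjusted p = 2.5e-05 for r and at most 0.000675 for rho). The unadjusted p for r, 1e-05, is the smallest that these resamples can give. Without the 2 litters farthest from the median, r stayed at 0.99. Both sides of the relations in this paragraph come from the same libraries and share depth and conversion. A shift of a whole library would reach both sides, and its part was not tested. The litter deviation of intermediate fragments followed that of high fragments (r = 0.93, rho = 0.94, adjusted permutation p = 2.5e-05 and 5e-05, and r = 0.82 without litters 1 and 8). No relation was detected with low fragments (r = 0.24, rho = 0.30, adjusted permutation p = 0.501 and 0.418, r = 0.45 without litters 1 and 12, and from 0.085 without litter 12 to 0.54 without litter 1). Nor was one detected between island cores and fragments outside islands (r = 0.28, rho = 0.32, adjusted permutation p = 0.460 and 0.418, r = 0.18 without litters 8 and 10). With 1 litter left out, this r ran from 0.13 without litter 12 to 0.62 without litter 1, in no case past the threshold.

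Litters with more calls had lower mean levels, a relation that rested in part on the extreme litters. For the mean level, r was -0.70 (adjusted permutation p = 0.0194) and rho -0.60 (adjusted permutation p = 0.0728). Without litters 6 and 10, r was -0.63 (adjusted permutation p = 0.0851), and it failed likewise without litter 8 (r = -0.62) or litter 10 (r = -0.60). For intermediate fragments, r was -0.75 (adjusted permutation p = 0.0109) and rho -0.69 (0.0310). Without litters 6 and 10, r was -0.69 (adjusted permutation p = 0.0462), and without litter 10 alone it was -0.66 (adjusted permutation p = 0.0525). Over 50 bp, the mean level gave r = -0.63 and rho = -0.46 (adjusted permutation p = 0.0468 and 0.191). Intermediate fragments over 50 bp gave r = -0.72 and rho = -0.66 (adjusted permutation p = 0.0154 and 0.0434). Over 50 bp without litters 6 and 10, neither r passed, at -0.51 and -0.64 (adjusted permutation p = 0.195 and 0.0888). Neither the typical deviation of a litter (r = -0.38, rho = -0.27, adjusted permutation p = 0.321 and 0.418) nor its floor, the median level of core fragments below 20% (r = 0.09, rho = 0.26, adjusted permutation p = 0.787 and 0.418), was detectably related to the number of calls. Without litters 6 and 10, r was 0.12 and 0.06. The part of depth in these differences was not tested.

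Marker genes of other cells and adipocyte genes are given beside the litter differences, for listed genes with a level in all 12 litters. The full lists hold 18 muscle, 22 blood and immune and 26 adipocyte genes. The median level of 10 muscle genes ran from 64.6% to 78.0% over litters, with litter 8 the second lowest at 65.4% and litter 10 the highest. The median of 6 blood and immune genes ran from 35.8% to 45.04%, with 41.3% in litter 8 and 43.8% in litter 10. The median of 23 adipocyte genes ran from 6.11% to 8.97%, with 6.82% in litter 8 and 7.28% in litter 10. No marker gene of these lists was at 0 in all litters, and the part of cell mixture in the litter differences was not tested.

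Fragments of different chromosomes deviated together only weakly, and those within 1 kb more. Among 727 fragments over 50 bp at 20 to 80% with at least 50 calls in every litter, the median r between the 12 litter levels of 2 fragments was 0.13 on different chromosomes, 0.13 on 1 chromosome over 1 Mb apart, 0.16 at 1 to 10 kb (48 pairs) and 0.29 within 1 kb (96 pairs). Of the pairs on different chromosomes, 63.7% had a positive r, against 77.1% of those within 1 kb. All such pairs share the same 12 libraries, and the values are descriptions.

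**Figure D5:**
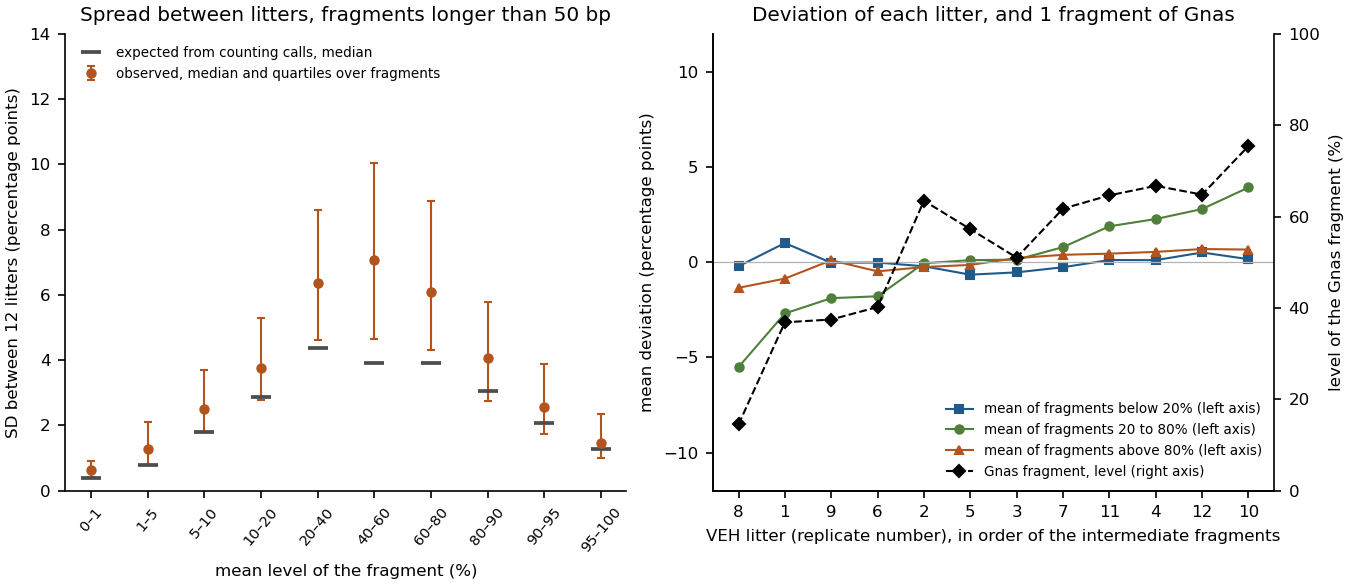
Left, SD between the 12 VEH litters in fragments over 50 bp by mean level (median and quartiles over fragments) beside the median SD expected from counting calls. Right, mean deviation of each litter for fragments below 20%, at 20 to 80% and above 80% (left axis, percentage points), with the level of the Gnas fragment at 52.8% ± 17.4 (right axis), litters in order of the intermediate fragments: litter 8 is lowest at -5.50 and litter 10 highest at 3.93.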

How the data were processed

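BAT DNA was cut with MspI, end-repaired, size-selected on beads, bisulfite-converted, amplified and read as single 50 bp ends. Per the labels and the methods, the authors trimmed reads with Scythe and Sickle and aligned them to GRCm38 with Bismark 0.15.0 and Bowtie2. Removal of end-repaired bases and the annotation release are not given in the sources used here. The authors deposited counts of methylated and not methylated CpG calls per MspI fragment and library, not normalized, with a gene, a gene region class (spanning a gene start or end, exon, intron, boundaries, upstream), a class relative to CpG islands and distances. Of these, 24 count columns of 12 VEH libraries were used and 24 count columns of other libraries were not. The table holds 65535 fragments and ends within chromosome 3. Of the fragments, 65535 began at CCGG in the reference. Brown fat genes elsewhere were not analysed here.

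Levels were computed in Python 3.11.15 with NumPy 2.4.6, pandas 2.3.3 and SciPy 1.17.1 where a litter had at least 10 calls, and fragments with a level in at least 8 litters were used. A class mean is the mean over its fragments in each litter, given as mean ± SD over litters. Classes were compared within litters with exact two-sided sign-flip permutation tests, adjusted by Benjamini-Hochberg within each family of pairs at 0.05, and classes under 10 fragments were not tested. Relations across litters were tested with 100000 permutations. The SD expected from counting is binomial. Transcript starts were taken from GENCODE M21. Members, gene lists and class boundaries were chosen with earlier results of these data known. Named genes are the lowest, middle and highest of each list, all imprinted genes, the 10 most and 5 least variable fragments and the most deeply read fragment of each class. The 5 steadiest fragments over 50 bp, the neighbours of Gnas and the 3 composition examples were added after values were seen, as was the limit to fragments over 50 bp. The labels used here name no batch of the VEH libraries. For classes, a p-value concerns the within-litter difference over the litters, and for relations it concerns association across litters. The steps were tested on simulated data. The depth per litter and its precision are given in the text above.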

Additional observations from a re-analysis of the deposited data

How the results depend on the processing

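Of 1082 values recomputed for 63 results, 1003 kept their direction and their side of the threshold or stayed within 1 SD over litters. Most came from leaving out 1 litter, where 719 of 732 held. Over 50 bp 44 of 63 held, and with levels in all 12 litters 38 of 50. Counts of pairs past the threshold were allowed a margin: over all fragments, those of gene regions ran from 15 to 21 with 1 litter left out. Fewer pairs were tested where the class of 11 intron-holding fragments fell under 10, so the lower count does not mean that pairs failed. No paired analysis was possible because only the VEH group was analysed, so replicate numbers could pair no groups. Classes were compared within each litter. Every cause below was not tested. Over 50 bp, a limit chosen after seeing the data, introns exceeded exon-to-intron fragments outside islands by 1.54 points instead of lying below them. There, exon-to-intron fragments exceeded exons by only 0.0357, and the first distance step in cores was 0.158, neither past the threshold. The share below 20% was 57.6% with 5 calls, 60.2% with 20, 60.4% with levels in all 12 litters, 57.9% with a level in any and 59.6% from pooled calls. The share at 20 to 80% was 17.1% pooled and 14.7% over 50 bp, and that above 80% was 21.3% with all 12 litters and 27.2% over 50 bp.

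Medians of lists moved as follows. Imprinted genes gave 31.7% with a level in any litter, 13.01% over 50 bp and 32.3% in a 2000 bp window, and adipocyte genes 6.03% and 8.95% in 500 and 2000 bp windows. Muscle genes gave 64.2% with 20 calls, 77.4% over 50 bp, 60.5% in a 500 bp window and 64.0% to 71.3% with 1 litter left out. Blood and immune genes gave 40.3% with all 12 litters, 34.6% over 50 bp, 8.50% and 79.1% in 500 and 2000 bp windows. Germline genes gave 88.7%, 89.97% and 87.6% with all 12 litters, over 50 bp and in a 2000 bp window, and developmental factors 7.48% with 20 calls and 6.97% with all 12 litters.

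The median SD was 1.57 with 50 calls, 2.50 with 8 litters, 1.07 after counting variance and 2.41 over 50 bp. The litter mean was 29.1% with 50 calls, 34.6% over all covered fragments, 24.0% pooled and 34.5% over 50 bp, and the range of litters 3.502 over all covered fragments and 10.4 points pooled. The mean level against calls gave r = -0.63 without litters 6 and 10, and between -0.76 and -0.60 with 1 litter left out, past the threshold except without litter 8 (-0.62) or litter 10 (-0.60). The typical deviation against calls turned to 0.12 without litters 6 and 10. The floor against calls ran from -0.051 without litter 1 through -0.00018 without litter 6 to 0.17, and intermediate fragments against calls from -0.82 to -0.66, the latter without litter 10 and not past the threshold. With 1 litter left out, no other named difference or relation changed its call, while between 10 and 13 pairs of gene regions in cores were past the threshold. Depth limits single fragments: long fragments and sites outside islands were thinly read, and a level from 10 calls is coarse.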

Other observations

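The mean level of a litter from pooled calls was 24.0%, below the mean over fragments, and the pooled range over litters was 10.4 percentage points against 2.02 for the mean over fragments. Pooled calls weight a fragment by its depth. The most deeply read fragment, named for AC137844.2, held between 220530 and 416326 calls per litter and was lowest in litter 8 at 35.7%. Litters held 8371958 to 13768991 calls in all. The part of this fragment in the pooled range was not tested.

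Of the 200 most variable fragments, 53.5% were over 50 bp, against 50.2% of all 13559 fragments with 50 calls in every litter. Neighbouring fragments that were both up to 50 bp differed by a median of 3.82 percentage points (965 pairs).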
